A study of Homo sapiens with 9 samples.

Results

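The glucose-responsive genes TXNIP and ARRDC4, the related gene ARRDC3 and the genes MLXIP and MLX were followed in RNA from human H1975 lung cancer cells. The 5 members were taken by gene symbol out of 56823 genes, and all 5 were among the 19658 genes with enough reads to be tested. They were chosen by the measured counts of TXNIP, which were lower with gRNA1 and higher with gRNA2 than in controls, so their values in the 3 comparisons are a description: folds and intervals are given with no p-value. H1975 is an established line from a non-small cell lung cancer. Every library came from H1975-TRE-dCas9-KRAB cells, in which a doxycycline-responsive promoter drives a Cas9 that cannot cut, fused to the KRAB repressor domain. The gRNA1 group carried TRIDENT gRNA1, the gRNA2 group TRIDENT gRNA2 and the control group a non-targeting gRNA (NT), with 3 libraries in each. All 9 libraries, controls included, had doxycycline at 4 ug/ml, which the series gives as lasting 72 hours, and both guide groups are set against the same control libraries. Whether the cells are a single clone, and whether the 3 libraries of a group are separate cultures, is not stated, so p-values measure the spread between these libraries.

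MLXIP encodes MondoA, a transcription factor that is held outside the nucleus until glucose 6-phosphate, the first product of glucose metabolism, lets it enter and act. It binds DNA as a pair with MLX, at carbohydrate response elements made of a pair of E-box-like motifs. TXNIP and ARRDC4 are its classic targets. Both encode alpha-arrestins, adaptor proteins that bring NEDD4-family ubiquitin ligases to membrane proteins. TXNIP also binds thioredoxin and promotes the removal of the glucose transporters GLUT1 and GLUT4 from the cell surface, so it brakes glucose uptake. ARRDC3 is a related alpha-arrestin that acts on cell-surface proteins such as integrin beta 4.

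The stretches just upstream of the TXNIP and ARRDC4 starts are shown because TXNIP holds such a pair and ARRDC4 a single E-box. Both come from RefSeq on GRCh38.p14, 5′ to 3′ on the strand of the gene, and both end before the first transcribed base that GENCODE 29 lists. Capitals mark the E-box-like CACGAG, the E-box CACGTG, the FOXO motif GTAAACA and the CCAAT box (ATTGG where it lies on the other strand). The TXNIP stretch is chr1:145996601-145996800 on the minus strand, and the ARRDC4 stretch is chr15:97960453-97960697 on the plus strand.
TXNIP: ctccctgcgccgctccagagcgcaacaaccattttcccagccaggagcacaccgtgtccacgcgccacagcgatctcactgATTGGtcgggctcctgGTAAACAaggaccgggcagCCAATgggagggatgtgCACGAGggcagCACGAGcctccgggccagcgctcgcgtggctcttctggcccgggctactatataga
ARRDC4: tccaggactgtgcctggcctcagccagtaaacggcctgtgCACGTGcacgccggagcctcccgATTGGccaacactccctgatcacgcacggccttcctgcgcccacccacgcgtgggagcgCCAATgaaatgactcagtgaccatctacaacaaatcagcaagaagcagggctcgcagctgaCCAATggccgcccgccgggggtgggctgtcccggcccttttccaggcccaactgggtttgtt

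In TXNIP, 2 copies of CACGAG lay 5 bases apart, the first at position -88 from the RefSeq start, with a CCAAT box on either side of the FOXO motif further upstream. The paired arrangement, searched on both strands as CACGNG, any 5 bases and CACGNG again, was in 20 of 35116 RefSeq promoter windows of 300 bases (0.057%). A single CACGAG was in 6.78% of those windows, CACGTG in 7.26%, GTAAACA in 3.42% and CCAAT in 34.6%. CACGTG reads the same on both strands, and no pair of these motifs shares bases except that the paired motif contains both CACGAG copies. ARRDC4 had 1 CACGTG at -210 and 3 CCAAT boxes. MLX had 1 CACGTG at -50 and 1 CCAAT box, MLXIP 1 CCAAT box, and ARRDC3 1 CCAAT box and, at its second listed start, 1 GTAAACA. The motifs were chosen with the TXNIP promoter in view, and a match in these windows is no evidence of binding.

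The libraries held 16918432 to 26466536 reads assigned to transcripts. The 8 epithelial markers summed to 2940 to 3090 CPM (each library's counts brought to one size with TMM factors) with gRNA1, 2840 to 3040 with gRNA2 and 3060 to 3290 in controls. Of these, 1 fell with gRNA1 (CDH1), and with gRNA2 KRT19 and KRT8 fell and NAPSA rose; only KRT19 (fold 0.817, adjusted p = 0.00187) held in each fit without 1 library. NAPSA, a lung adenocarcinoma marker, was at only 2.36 to 4.21 CPM. The 8 markers of blood, endothelial and stromal cells summed to 78.6 to 86.3 CPM with gRNA1, 84.3 to 97.0 CPM with gRNA2 and 82.8 to 87.0 CPM in controls, and none of the 6 that could be tested passed. CD68, a lysosomal gene that tumour cells also express, made up most of that sum, COL3A1 was at 0 in every library and CD3E at most at 0.0427 CPM. Mitochondrial genes took 5.72 to 6.61% of reads with gRNA1, 5.78 to 6.2% with gRNA2 and 5.37 to 5.68% in controls. The part of these differences in the results below was not tested. The targeted transcript, listed by RefSeq as TRIDDENT with the synonym TRIDENT, had 36, 49 and 38 reads with gRNA1, 61, 60 and 42 with gRNA2 and 49, 56 and 62 in controls. Its fold was 0.745 with gRNA1 (95% interval 0.588 to 0.943, adjusted p = 0.128) and 0.945 with gRNA2 (0.753 to 1.19, adjusted p = 0.81) by edgeR's quasi-likelihood test with Benjamini-Hochberg adjustment. The gRNA1 libraries lay below every control, but neither difference passed the test at this depth. Along the first principal component, controls stood at 31.3, 16.0 and 21.3 and the guide libraries at -17.1 to -4.3. Along the second, gRNA2 replicate 3, the shallowest library, stood at 34.4 against 4.0 and 8.1 for the other gRNA2 libraries. Folds without gRNA2 replicate 3 are given with the genes. By chi-square per degree of freedom over genes, gRNA1 replicate 3 differed from its group at 4.9 and 4.83. Replicates 1 and 2 of gRNA1 differed at 1.76. Within gRNA2, replicate 1 differed at 4.38 and 6.01, against 2.65 between replicates 2 and 3.

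TXNIP was lower with gRNA1 than in controls and higher with gRNA2. The gene (ENSG00000265972.5, hg38 chr1:145992435-145996600, minus strand) had 212, 215 and 204 CPM with gRNA1, 372, 378 and 370 CPM with gRNA2, and 237, 249 and 247 CPM in controls. Each gRNA2 library was above all 6 others and each gRNA1 library was below every control, so the 3 groups did not overlap. Group means were 210 ± 5.41 CPM with gRNA1, 373 ± 4.0 CPM with gRNA2 and 245 ± 6.54 CPM in controls (SD, n = 3 each). The fitted fold against control was 0.859 with gRNA1 (95% interval 0.816 to 0.905) and 1.53 with gRNA2 (1.45 to 1.61), and gRNA2 was 1.78 times gRNA1 (1.69 to 1.87). The difference was therefore larger in size with gRNA2 than with gRNA1, on either side of the control level. These counts came from 4150 to 9895 reads per library, and none of the gene's 31-base words occurs in a transcript of another gene. In bulk RNA, a change in the share of cells that express a gene and a change in the RNA per cell cannot be told apart. Leaving out gRNA2 replicate 3 gave a log2 fold change of 0.62 with gRNA2, against 0.61 with it. Of all genes tested, 27.5% had a larger absolute fold change than TXNIP with gRNA1 and 4.06% with gRNA2.

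The full-length TXNIP transcript held nearly all of the gene's reads, so it repeats the pattern of the gene and adds no separate support. ENST00000582401.5, of 2926 bases, took 96.0% of the gene's reads over all libraries (95.3% with gRNA1, 96.6% with gRNA2 and 95.9% in controls). Its level per transcript length was 63.6, 65.4 and 57.9 TPM, the authors' length-scaled unit, with gRNA1, 109, 116 and 116 TPM with gRNA2, and 69.1, 74.8 and 71.2 TPM in controls. These groups did not overlap either. The shorter coding transcript ENST00000425134.2 held 2.3% of the reads, and the transcripts with a retained intron held 1.5% and 0.2%.

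ARRDC4, the alpha-arrestin most closely related to TXNIP, was the least abundant of the 5 and had a fold near that of TXNIP in each comparison. The gene (ENSG00000140450.8, hg38 chr15:97960698-97973838, plus strand) has a single transcript in GENCODE 29. It had 12.1, 10.5 and 8.91 CPM with gRNA1, 16.7, 18.5 and 19.0 CPM with gRNA2, and 12.6, 12.0 and 12.7 CPM in controls. The gRNA2 libraries were the highest 3, while gRNA1 and control overlapped, since gRNA1 replicate 1 lay among the controls. Means were 10.5 ± 1.61, 18.1 ± 1.18 and 12.4 ± 0.4 CPM with gRNA1, with gRNA2 and in controls (SD, n = 3 each). The fold was 0.848 with gRNA1 (95% interval 0.731 to 0.983), 1.45 with gRNA2 (1.26 to 1.67) and 1.71 between gRNA2 and gRNA1 (1.49 to 1.97). The gRNA1 value leaned on replicate 3 with its 181 reads: without it the log2 fold change was -0.13, against -0.24 with it. Without gRNA2 replicate 3 the gRNA2 value was 0.51, against 0.54.

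The ratio of TXNIP to ARRDC4, in TPM, varied within the groups as much as between them. It was 23.7, 28.1 and 31.2 with gRNA1, 29.7, 27.4 and 26.5 with gRNA2, and 24.9, 28.5 and 26.3 in controls. The ratio of TXNIP to ARRDC3 did separate the groups, at 2.84, 2.69 and 2.52 with gRNA1, 6.86, 6.32 and 6.58 with gRNA2, and 3.34, 3.63 and 2.92 in controls. TXNIP relative to TXN, which encodes the thioredoxin that TXNIP protein binds, was 0.235, 0.247 and 0.232 with gRNA1, 0.435, 0.435 and 0.419 with gRNA2, and 0.243, 0.264 and 0.251 in controls. There the gRNA2 libraries stood apart, and gRNA1 and control overlapped. TXNIP was chosen for its values in these groups, so ratios that contain it carry no test.

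**Figure D1:**
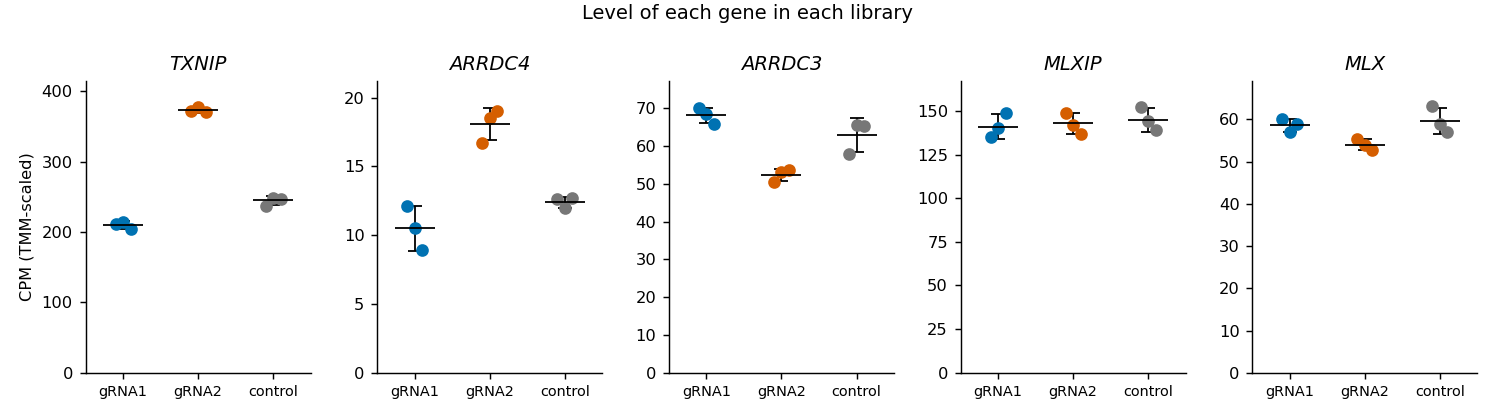
CPM (TMM-scaled, linear axes from 0) of each of the 5 genes in every library, with gRNA1 in blue, gRNA2 in orange and control in grey; the horizontal line is the mean and the bar is the SD of 3 libraries. The gRNA2 libraries lie highest for TXNIP (370 to 378 CPM) and ARRDC4 (16.7 to 19.0 CPM) and lowest for ARRDC3 (50.6 to 53.6 CPM) and MLX (52.7 to 55.3 CPM), while the MLXIP groups overlap.

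ARRDC3 went the other way from TXNIP and ARRDC4 in each comparison, but only slightly with gRNA1. There 52.0% of all genes tested had a larger absolute fold change, against 21.3% with gRNA2. The gene (ENSG00000113369.8, hg38 chr5:91368724-91383359, minus strand) had 70.0, 68.4 and 65.9 CPM with gRNA1, 50.6, 53.1 and 53.6 CPM with gRNA2, and 57.8, 65.5 and 65.4 CPM in controls. The groups did not overlap, but the lowest gRNA1 library, at 65.9 CPM, and the highest control, at 65.5 CPM, were nearly level. Means were 68.1 ± 2.06 CPM with gRNA1, 52.4 ± 1.59 CPM with gRNA2 and 62.9 ± 4.4 CPM in controls (SD, n = 3 each). The fold was 1.08 with gRNA1 (95% interval 1.0 to 1.17), 0.831 with gRNA2 (0.769 to 0.899) and 0.769 between gRNA2 and gRNA1 (0.711 to 0.832). Without gRNA2 replicate 3 the log2 fold change with gRNA2 was -0.28, against -0.27 with it. With transcript length modelled it was -0.43, outside the interval above, and -0.52 between the guides, against -0.38.

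Its main coding transcript, ENST00000265138.3, took 92.5% of the reads and stood at 15.0, 14.3 and 13.1 TPM with gRNA1, 10.7, 11.3 and 11.4 TPM with gRNA2, and 12.3, 13.8 and 13.1 TPM in controls. On this scale too the gRNA2 libraries were the lowest 3, while gRNA1 and control overlapped. ARRDC3-AS1, which overlaps ARRDC3 on the opposite strand, had 3.75, 4.61 and 4.78 CPM with gRNA1, 3.13, 4.28 and 4.2 CPM with gRNA2, and 5.03, 4.03 and 3.91 CPM in controls. The strand setting of the quantification is not given in the sources used here, so reads of ARRDC3 and its antisense partner may be mixed.

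MLXIP, the MondoA gene, differed by less than the spread between libraries in all comparisons. The gene (ENSG00000175727.13, hg38 chr12:122078722-122147347, plus strand) had 135, 140 and 149 CPM with gRNA1, 149, 142 and 137 CPM with gRNA2, and 152, 144 and 139 CPM in controls. All 3 groups overlapped, with means of 141 ± 7.06, 143 ± 6.03 and 145 ± 6.88 CPM with gRNA1, with gRNA2 and in controls (SD, n = 3 each). The fold was 0.974 with gRNA1 (95% interval 0.906 to 1.05), 0.986 with gRNA2 (0.918 to 1.06) and 1.01 between gRNA2 and gRNA1 (0.942 to 1.09). Without gRNA2 replicate 3 the log2 fold change with gRNA2 was 0.01, against -0.02 with it. The fold intervals leave out a difference of the size TXNIP showed with gRNA2. The longest coding transcript, ENST00000319080.11, held 79.6% of MLXIP reads, and its share was 81.0% with gRNA1, 79.5% with gRNA2 and 78.5% in controls.

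MLX, the partner without which MondoA does not bind DNA, was slightly lower with gRNA2. The gene (ENSG00000108788.11, hg38 chr17:42567068-42573239, plus strand) had 60.0, 57.0 and 58.9 CPM with gRNA1, 55.3, 53.9 and 52.7 CPM with gRNA2, and 63.1, 59.0 and 57.1 CPM in controls. The gRNA2 libraries were the lowest 3, and gRNA1 and control overlapped. Means were 58.6 ± 1.53 CPM with gRNA1, 54.0 ± 1.27 CPM with gRNA2 and 59.7 ± 3.1 CPM in controls (SD, n = 3 each). The fold was 0.982 with gRNA1 (95% interval 0.916 to 1.05), 0.905 with gRNA2 (0.844 to 0.971) and 0.922 between gRNA2 and gRNA1 (0.86 to 0.988). Of all genes tested, 43.9% had a larger absolute fold change than MLX with gRNA2. The log2 fold change with gRNA2 was -0.13 without gRNA2 replicate 3, against -0.14 with it, and with transcript length modelled the gRNA1 value turned to 0.03, against -0.03.

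The MLX reads were less concentrated in 1 transcript than those of the other 4 genes. Its main coding transcript, ENST00000435881.6, held 48.3% of the reads with gRNA1, 51.9% with gRNA2 and 58.2% in controls, at 9.31, 10.8 and 9.02 TPM with gRNA1, 9.80, 9.89 and 10.0 TPM with gRNA2, and 12.2, 11.0 and 12.4 TPM in controls. All 3 controls were above all 6 guide libraries for that transcript. ENST00000588320.1, which keeps an intron, held 25.8% with gRNA1, 28.7% with gRNA2 and 23.1% in controls, and its TPM overlapped between all groups. These shares are estimates of how reads divide among overlapping transcripts, and 21.4% of the 31-base words of MLX also occur in transcripts of other genes, against 3.93% for MLXIP and 2.36% for ARRDC3. PSMC3IP, which overlaps the end of MLX on the opposite strand, was at 6.7, 6.7 and 7.53 CPM with gRNA1, 7.09, 7.06 and 6.55 CPM with gRNA2, and 7.76, 8.23 and 7.63 CPM in controls.

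**Figure D2:**
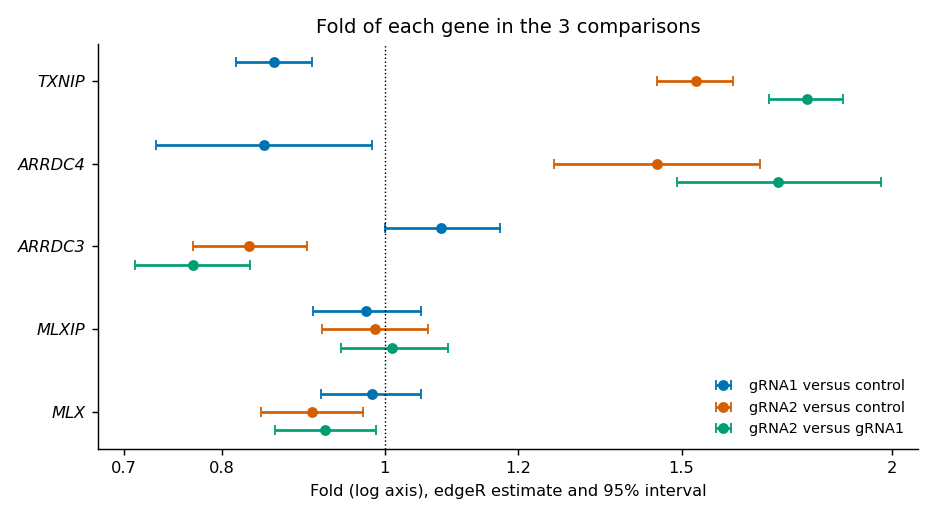
Fold of each gene (edgeR estimate, points) with its 95% interval (bars) in the 3 comparisons, on a log axis with no change at 1; gRNA1 versus control in blue, gRNA2 versus control in orange and gRNA2 versus gRNA1 in green. TXNIP and ARRDC4 lie left of 1 with gRNA1 and right of 1 with gRNA2 (1.53 and 1.45), ARRDC3 lies on the opposite side in each comparison, and the MLXIP intervals all span 1.

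By level per transcript length over the 9 libraries, TXNIP was first (66.0 to 126 TPM, median 79.6), then MLXIP (28.2 to 32.4, median 31.9), MLX (24.0 to 29.3, median 24.9), ARRDC3 (17.5 to 27.4, median 22.9) and ARRDC4 (2.12 to 4.77, median 3.02). The ranges of TXNIP and of ARRDC4 met no other, while MLXIP overlapped MLX and MLX overlapped ARRDC3. MLX and ARRDC3 averaged 26.9 ± 2.29 and 26.2 ± 1.22 TPM with gRNA1, and 26.1 ± 1.8 and 24.2 ± 2.66 TPM in controls, which is within their spread. With gRNA2 they averaged 24.6 ± 0.509 and 18.8 ± 1.21 TPM (SD, n = 3 each), and there they stood apart. TXNIP ranked 1271, 1212 and 1266 by TPM among all genes with gRNA1, 594, 591 and 585 with gRNA2, and 1152, 1036 and 1035 in controls.

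**Figure D3:**
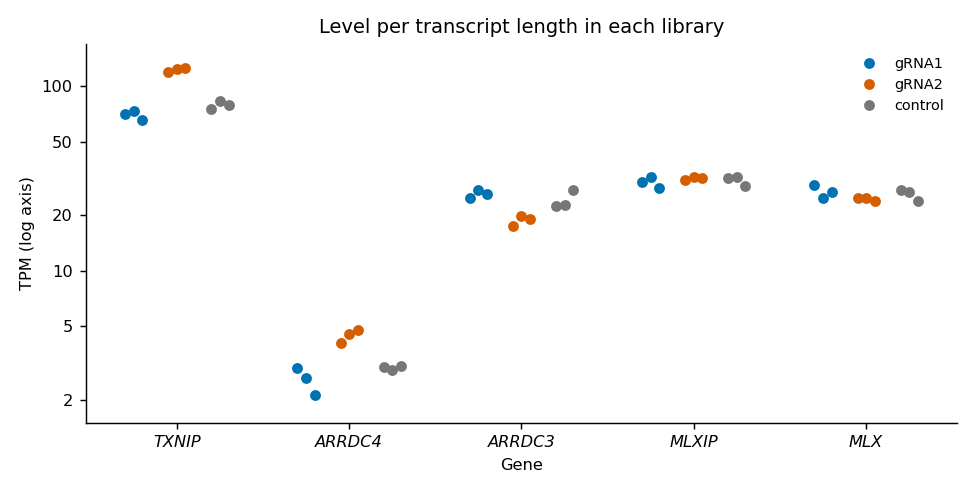
Level per transcript length (TPM, log axis) of each gene in every library, 1 point per library, with gRNA1 in blue, gRNA2 in orange and control in grey. TXNIP (66.0 to 126 TPM) lies above and ARRDC4 (2.12 to 4.77 TPM) below the other 3 genes in every library.

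With gRNA1, 1 of the 5 genes passed an adjusted p of 0.05 (TXNIP, lower), in a comparison where 7.08% of all genes passed in either direction, 3.49% higher and 3.58% lower. With gRNA2, 3 passed (TXNIP and ARRDC4 higher, ARRDC3 lower), where 8.44% of all genes passed, 3.69% higher and 4.75% lower. Between gRNA2 and gRNA1 the same 3 passed in the same directions, where 6.22% of all genes passed, 3.12% higher and 3.1% lower. Groups did not overlap in CPM for 2 of the 5 with gRNA1, 4 with gRNA2 and 4 between the guides, against 28.1%, 27.4% and 23.8% of all genes. Since these contrasts chose the genes, the counts are no test of them and nothing is read from them.

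The 5 genes whose profile over the 9 libraries was most like that of TXNIP were ATF3, CD274, CCN1, MYC and EGR1, and ARRDC4 came eighth. Likeness was the mean absolute difference between log2 CPM values, each centred on the gene's own mean, and was ranked over the 13465 genes whose log2 CPM averaged 1 or more (median difference 0.33). ATF3, a stress-induced transcription factor, differed by 0.0318 and had 16.1, 17.0 and 16.3 CPM with gRNA1, 32.4, 30.4 and 30.0 CPM with gRNA2, and 18.5, 20.2 and 19.9 CPM in controls. Its gRNA2 libraries were the highest and its gRNA1 libraries the lowest, as for TXNIP. CD274, which encodes the immune checkpoint ligand PD-L1, differed by 0.0448 and had 44.8, 49.5 and 45.6 CPM with gRNA1, 77.4, 77.6 and 79.8 CPM with gRNA2, and 48.4, 53.6 and 51.4 CPM in controls. For CD274 gRNA1 and control overlapped. CCN1, a secreted matrix-associated protein, differed by 0.0479 and had 150, 149 and 155 CPM with gRNA1, 266, 264 and 256 CPM with gRNA2, and 186, 180 and 183 CPM in controls. EGR1, an immediate-early transcription factor, differed by 0.0751 and had 54.5, 56.1 and 56.7 CPM with gRNA1, 109, 97.1 and 103 CPM with gRNA2, and 62.8, 60.9 and 57.7 CPM in controls. The groups of CCN1 and EGR1 did not overlap. ARRDC4 differed from TXNIP by 0.0896, MLXIP by 0.32 (rank 5802), MLX by 0.378 (rank 11218) and ARRDC3 by 0.461 (rank 13080). These genes were selected for their likeness to TXNIP, so these values carry no test.

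**Figure D4:**
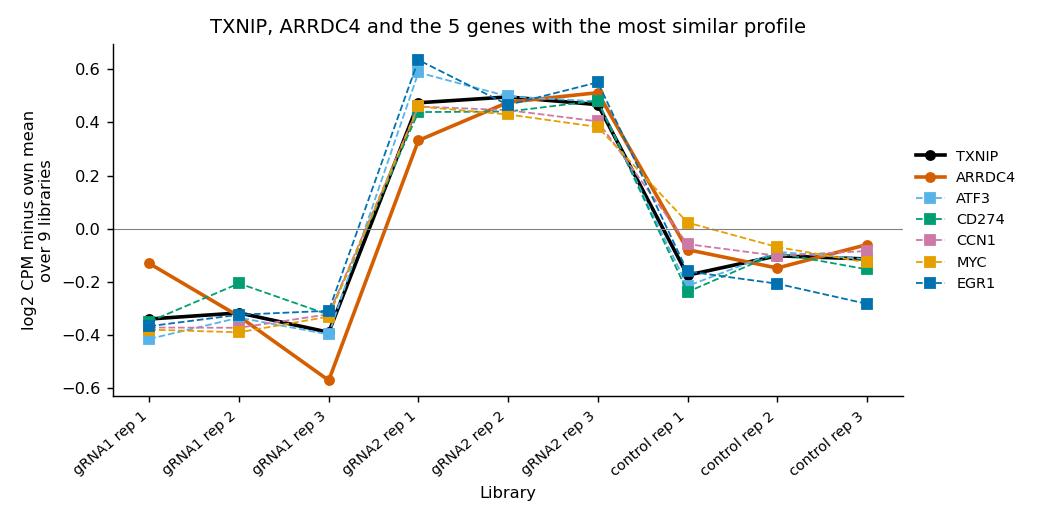
Log2 CPM of TXNIP, ARRDC4 and the 5 genes with the smallest difference from TXNIP, each centred on its own mean over the 9 libraries, by library; gRNA1 libraries are at the left, gRNA2 in the middle and controls at the right. All 7 are highest in the gRNA2 libraries, and ARRDC4 has the widest spread within gRNA1 (12.1, 10.5 and 8.91 CPM).

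Outside the 5, 88 of 99 genes on 10 lists around this pathway could be tested, and the counts are given by list with edgeR's quasi-likelihood test at an adjusted p of 0.05. With gRNA1, 2 rose and 10 fell (13.6% of 88, against 7.08% of all genes), and the median log2 fold change was -0.05. With gRNA2, 10 rose and 15 fell (28.4%, against 8.44%), with a median of -0.03. Between gRNA2 and gRNA1, 11 were higher and 8 lower (21.6%, against 6.22%). The median over all genes tested lay between 0.0 and 0.01 in these comparisons. The lists were chosen with earlier results of these data known, and their genes were not matched to all genes by level. These shares therefore carry no test of the pathway. The gRNA1 count dropped to 5 without control replicate 2, 6 without control replicate 3 or gRNA1 replicate 2, and 7 without gRNA1 replicate 1 or gRNA2 replicate 2; the gRNA2 count dropped to 16 without control replicate 3 and 15 without gRNA2 replicate 2. Calls that held in all 15 alternative settings numbered 4 with gRNA1 (NEDD4 higher; HK2, MYC and SCD lower) and 8 with gRNA2 (MYC and PRKAB2 higher; GPI, LDHA, PRDX1, SCD, SLC2A1 and TXNRD1 lower).

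Of the 10 tested genes of the Mondo, MYC and MAX network, the transcription factors that share E-box sites or partners with MondoA, MYC and MXI1 fell with gRNA1 and MYC and MAX rose with gRNA2. MYC had 190, 189 and 197 CPM with gRNA1, 341, 334 and 323 CPM with gRNA2, and 252, 236 and 227 CPM in controls, and its groups did not overlap. Its fold was 0.806 with gRNA1 (adjusted p = 0.000543), 1.4 with gRNA2 (adjusted p = 1.15e-05) and 1.73 between the guides (adjusted p = 9.92e-08); its likeness to TXNIP, on which it was also named, adds no independent support. MAX, the partner of MYC, had a fold of 1.12 with gRNA2 (adjusted p = 0.0452), and MXI1, which competes with MYC for MAX, a fold of 0.892 with gRNA1 (adjusted p = 0.0252). MLXIPL, which encodes the MondoA relative ChREBP, was at 29.5 to 37.7 CPM with overlapping groups, and its fold was 0.995 with gRNA1 (95% interval 0.897 to 1.1) and 1.11 with gRNA2 (1.01 to 1.23, adjusted p = 0.186). The MAX call was lost without any 1 of 7 libraries (all but gRNA1 replicates 1 and 3; adjusted p 0.0522 to 0.156), and the MXI1 call without control 2 or 3, gRNA1 2 or 3, or gRNA2 2 (0.0523 to 0.152); neither held with transcript length modelled (0.479 for MAX and 0.219 for MXI1).

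Among the other arrestin-domain genes, ARRB1 was the 1 of 4 tested that passed, higher with gRNA1 and lower with gRNA2. ARRB1 encodes beta-arrestin 1, which desensitises G protein-coupled receptors, and had 64.1, 62.4 and 61.8 CPM with gRNA1, 50.3, 49.0 and 49.8 CPM with gRNA2, and 58.6, 52.9 and 56.6 CPM in controls. Its groups did not overlap, and the guides lay on opposite sides of the controls, as with ARRDC3. The fold was 1.12 with gRNA1 (adjusted p = 0.0416), 0.888 with gRNA2 (adjusted p = 0.0337) and 0.792 between the guides (adjusted p = 0.000528). Either call against control was lost when any 1 of 6 libraries was left out (gRNA1: control 2 or 3, any gRNA1 or gRNA2 2, 0.0644 to 0.168; gRNA2: control 1 or 3, gRNA1 1 or 2 or gRNA2 2 or 3, 0.0544 to 0.144), while the difference between the guides held in each such fit. With transcript length modelled, neither call against control held, and the log2 fold changes were 0.28 with gRNA1 (adjusted p = 0.062), against 0.17, and -0.07 with gRNA2 (adjusted p = 0.662), against -0.17. ARRDC1 and ARRDC2 did not pass, with folds of 0.877 and 0.916 with gRNA1 and 1.0 and 1.09 with gRNA2.

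Of 9 NEDD4-family ubiquitin ligases, which alpha-arrestins recruit, NEDD4 rose with gRNA1 and none passed with gRNA2. NEDD4 had 124, 121 and 130 CPM with gRNA1, 105, 111 and 115 CPM with gRNA2, and 96.7, 106 and 96.5 CPM in controls, and its fold with gRNA1 was 1.25 (adjusted p = 0.00123). ITCH, the ligase known to degrade TXNIP protein, had a fold of 1.1 with gRNA1 (adjusted p = 0.0749) and 1.06 with gRNA2 (adjusted p = 0.225).

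Of 6 genes whose proteins are alpha-arrestin cargo, SLC2A1 fell with both guides. SLC2A1 encodes GLUT1, the transporter that TXNIP draws into the cell, and had 62.9, 63.1 and 58.1 CPM with gRNA1, 53.7, 48.3 and 49.5 CPM with gRNA2, and 73.1, 70.3 and 68.5 CPM in controls. The groups did not overlap. Its fold was 0.87 with gRNA1 (adjusted p = 0.0288), 0.716 with gRNA2 (adjusted p = 7.66e-05) and 0.823 between the guides (adjusted p = 0.00531). SLC2A1 RNA was thus below control with both guides. RNA counts do not show GLUT1 protein at the cell surface, and a link to TXNIP was not tested. The gRNA1 call was lost without any 1 of the 6 gRNA1 and control libraries (adjusted p 0.0571 to 0.108), and with transcript length modelled neither that call (0.165) nor the difference between the guides (0.0929) held. ITGB4, the integrin subunit that ARRDC3 acts on, fell with gRNA1 (fold 0.796, adjusted p = 0.0459; lost without control 1 or 2, any gRNA1 library or gRNA2 2, 0.0694 to 0.165, and with transcript length modelled, 0.513). F2R, a thrombin receptor, fell with gRNA2 (fold 0.852, adjusted p = 0.0335; lost without any control or gRNA2 2 or 3, 0.0584 to 0.152, and with transcript length modelled, 0.311).

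Of 13 genes of glucose uptake and phosphorylation, 2 fell with gRNA1 (SLC2A1 and HK2), and with gRNA2 1 rose (SLC2A3) and 4 fell, among them SLC2A1, HK1 and GPI. HK2, a hexokinase that makes glucose 6-phosphate, had 126, 124 and 129 CPM with gRNA1, 156, 159 and 154 CPM with gRNA2, and 169, 167 and 164 CPM in controls. The groups did not overlap, with a fold of 0.76 with gRNA1 (adjusted p = 1.42e-05), 0.938 with gRNA2 (adjusted p = 0.119) and 1.23 between the guides (adjusted p = 0.000158). SLC2A3, which encodes the transporter GLUT3, had a fold of 1.15 with gRNA2 (adjusted p = 0.00487) and GPI, which turns glucose 6-phosphate into fructose 6-phosphate, 0.799 (adjusted p = 0.000552). HK1, the more widely expressed hexokinase, had 0.849 (adjusted p = 0.0104), and was named after its values were seen. The HK1 call was lost without control 1 or gRNA2 2 (0.0503 to 0.051), and that of SLC2A3 when transcript length was modelled (0.174).

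Of 10 tested genes that are reported targets of MondoA or ChREBP besides TXNIP and ARRDC4, none rose with either guide. Over all genes tested, 3.49% rose with gRNA1 and 3.69% with gRNA2, so no rise among 10 genes is near that share. The shares that fell were 3.58% and 4.75%. Between the guides, HK2 passed as higher with gRNA2 (fold 1.23) and LDHA as lower (0.731). SCD, HK2 and LDHA fell with gRNA1, and ACACA, ACLY, SCD, ELOVL6 and LDHA fell with gRNA2, where the list's median log2 fold change was -0.16 against 0.01 over all genes. LDHA, lactate dehydrogenase A, had 1105, 1112 and 1069 CPM with gRNA1, 791, 802 and 810 CPM with gRNA2, and 1173, 1184 and 1210 CPM in controls. Its groups did not overlap, and its fold was 0.921 with gRNA1 (adjusted p = 0.0239) and 0.674 with gRNA2 (adjusted p = 2.66e-07). SCD, the desaturase that makes monounsaturated fatty acids, had 1712, 1703 and 1654 CPM with gRNA1, 1788, 1784 and 1806 CPM with gRNA2, and 2032, 2080 and 2028 CPM in controls. Its fold was 0.826 with gRNA1 (adjusted p = 2.7e-05) and 0.876 with gRNA2 (adjusted p = 0.000677). The lipid synthesis genes ACLY (0.878, adjusted p = 0.0051), ACACA (0.91, adjusted p = 0.0183) and ELOVL6 (0.874, adjusted p = 0.0166) had folds below 1 with gRNA2; ACACA and ELOVL6 were named after their values were seen. All 3 of these were lost when transcript length was modelled (adjusted p 0.256, 0.654 and 0.112), ACACA also without control 2 or 3 or gRNA2 2 (0.0715 to 0.102) and ELOVL6 without control 2 or 3 or gRNA2 1 or 2 (0.0564 to 0.102). The LDHA call with gRNA1 was lost without control 2 or 3, any gRNA1 library or gRNA2 2 (0.0559 to 0.114) and with transcript length modelled (0.168).

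Of 12 thioredoxin-system genes, none passed with gRNA1 and TXN, TXNRD1, PRDX1 and PRDX6 fell with gRNA2. TXNRD1, the reductase that keeps thioredoxin active, had a fold of 0.864 with gRNA2 (adjusted p = 0.00083), and PRDX1, a peroxidase that thioredoxin recharges, 0.802 (adjusted p = 0.000149). TXN had 151, 146 and 147 CPM with gRNA1, 142, 145 and 150 CPM with gRNA2, and 157, 158 and 167 CPM in controls, where both guide groups lay below the controls and overlapped each other. Its fold was 0.923 with gRNA1 (adjusted p = 0.0902) and 0.907 with gRNA2 (adjusted p = 0.0361), and that of PRDX6 with gRNA2 was 0.903 (adjusted p = 0.0265). The gRNA2 calls of TXN and PRDX6 were lost without any control or without gRNA2 1 or 2, and that of TXN also without gRNA1 2 (0.0582 to 0.174 for TXN, 0.0638 to 0.145 for PRDX6). With transcript length modelled both missed the threshold (0.0519 for TXN and 0.305 for PRDX6).

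AMPK, the energy sensor that phosphorylates TXNIP, was followed through 6 tested subunit and LKB1 genes, of which none passed with gRNA1 and both beta subunit genes rose with gRNA2. PRKAB2 had 52.9, 54.6 and 51.5 CPM with gRNA1, 60.0, 59.7 and 63.4 CPM with gRNA2, and 50.3, 53.3 and 49.8 CPM in controls, with a fold of 1.19 with gRNA2 (adjusted p = 0.0042). PRKAB1, at 9.49 to 13.1 CPM, had a fold of 1.3 with gRNA2 (adjusted p = 0.00893), which was lost when transcript length was modelled (0.141).

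FOXO factors and glucocorticoids are other known inducers of TXNIP, and their part in the values here was not tested. Of 14 FOXO and growth-factor withdrawal genes, INSR, the insulin receptor gene, fell with gRNA1 (fold 0.886, adjusted p = 0.00979). With gRNA2, PIK3IP1, an inhibitor of PI3K (1.32, adjusted p = 0.0134), and the repressor BCL6 (1.22, adjusted p = 0.00545) rose. The median log2 fold change of this list was -0.06 with gRNA1 and -0.02 with gRNA2. FOXO1 and FOXO3 did not pass, with folds of 1.0 and 0.915 with gRNA1 and 1.03 and 0.972 with gRNA2. Of 8 glucocorticoid receptor targets, KLF9 (0.848, adjusted p = 0.0162) and ERRFI1 (0.914, adjusted p = 0.0225) fell with gRNA1. With gRNA2, TSC22D3 (1.34, adjusted p = 0.000765), DUSP1 (1.15, adjusted p = 0.0367) and ERRFI1 (1.14, adjusted p = 0.00197) rose. ERRFI1 encodes a feedback inhibitor of EGFR, and had 577, 570 and 560 CPM with gRNA1, 692, 707 and 732 CPM with gRNA2, and 617, 627 and 622 CPM in controls. Its groups did not overlap and lay in the same order as those of TXNIP, with a fold of 1.25 between the guides (adjusted p = 3.69e-05). FKBP5 and PER1, 2 further glucocorticoid targets, did not pass, with folds of 0.975 and 0.872 with gRNA1 and 0.945 and 0.993 with gRNA2. Single libraries decided the calls of INSR (control 1, 0.0506), PIK3IP1 against control (control 2, 0.0586), KLF9 with gRNA1 (control 2 or 3 or gRNA1 1, 0.0644 to 0.09), ERRFI1 with gRNA1 (any control, gRNA1 2 or 3 or gRNA2 2, 0.0577 to 0.119) and DUSP1 against control (all but gRNA1 3 and gRNA2 1, 0.0528 to 0.162). With transcript length modelled, none of the calls against control in these lists held: the adjusted p with gRNA1 was 0.379 for INSR, 0.0698 for KLF9 and 0.148 for ERRFI1, and with gRNA2 it was 0.124 for PIK3IP1, 0.39 for BCL6, 0.0555 for TSC22D3, 0.166 for DUSP1 and 0.0699 for ERRFI1. Between the guides, PIK3IP1 (fold 1.5, adjusted p = 0.0014), KLF9 (1.3, adjusted p = 0.000625), DUSP1 (1.29, adjusted p = 0.00114) and ERRFI1 were higher with gRNA2 and passed in every setting. BCL6 (1.18, adjusted p = 0.0208) and TSC22D3 (1.22, adjusted p = 0.00909) also passed there, but not with transcript length modelled (0.388 and 0.178).

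**Figure D5:**
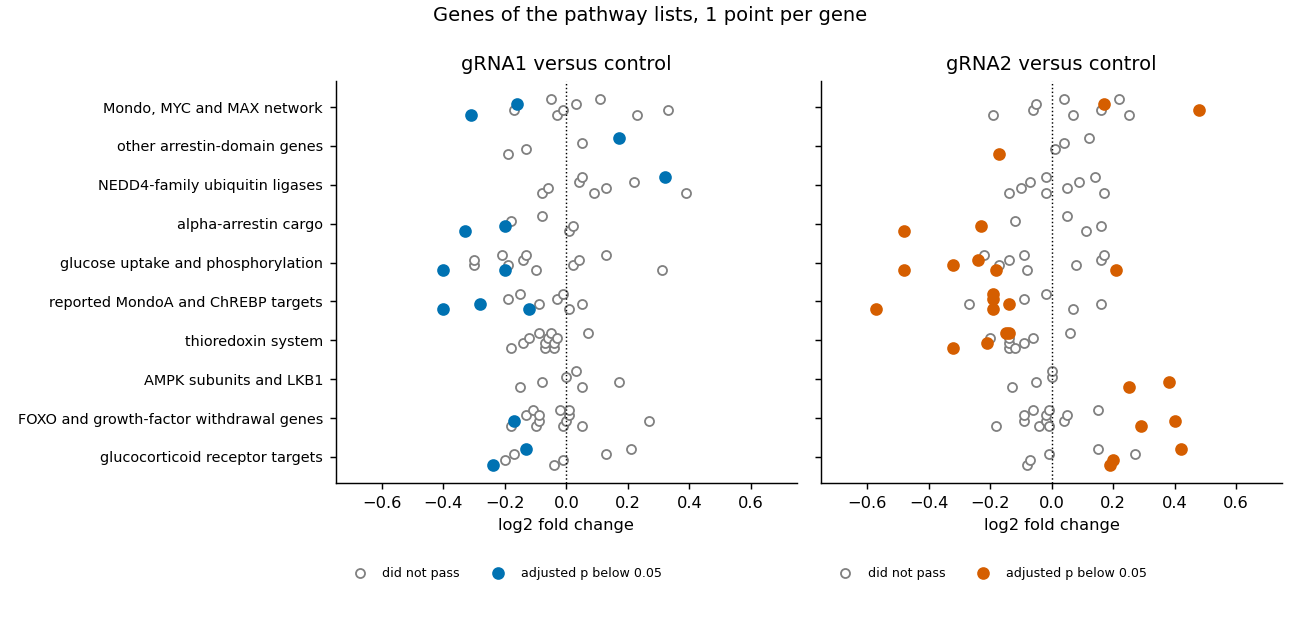
Log2 fold change of each tested gene on the 10 pathway lists, 1 point per gene and 1 line per list, for gRNA1 versus control at the left and gRNA2 versus control at the right; filled points passed an adjusted p of 0.05 and open points did not, and a gene on several lists is drawn on each. The lowest point with gRNA2 is LDHA (fold 0.674) and the highest is MYC (fold 1.4).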

How the data were processed

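The deposited files hold, per transcript, estimated counts and TPM that the authors made with Salmon 1.4.0 on hg38, per the submitters' processing notes. Libraries came from total RNA after ribosomal RNA depletion (KAPA RNA HyperPrep with RiboErase), per the labels' protocols. The transcript set and strand setting are not given in the sources used here. Deposited estimated counts were summed to genes by GENCODE 29, which listed 95.7% of 211939 transcripts, and rounded; the rest held 1.264 to 1.325% of reads. Deposited TPM were summed without change.

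Counts were tested with edgeR 4.0.16 in R 4.3.3 (quasi-likelihood F test, two-sided, TMM, filterByExpr, group as the only term, all 9 libraries in 1 fit), with Benjamini-Hochberg adjustment over 19658 genes and a threshold of 0.05. Alternatives were RLE scaling, no filter, DESeq2 1.42.0, a replicate block, only the groups compared, offsets for transcript length, and leaving out each library. The fit was tested on simulated data. Totals of 16918432 to 26466536 reads and a common coefficient of variation of 0.051 set the precision; intervals are 95%. No 2 libraries of a group agreed within counting noise (chi-square per degree of freedom 1.76 to 6.01).

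The members, lists and tests were chosen with earlier results of these data known. Besides the 5 genes, named genes were MLXIPL, MYC, ITCH, TXN, SLC2A1 and HK2, up to 4 genes per list past the threshold against control by the lowest adjusted p, and the 5 genes most like TXNIP (log2 CPM with a prior count of 2, average of at least 1). A few listed genes are counted but not reported here by name. Genes outside this rule are marked where a count rests on them. The target was matched to RefSeq by its synonym and, since that record gives no Ensembl gene, by the position of its transcript.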

Additional observations from a re-analysis of the deposited data

How the results depend on the processing

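TXNIP, ARRDC4 and ARRDC3 kept their direction in all 15 alternative settings: TXNIP from -0.24 to -0.2 with gRNA1 and from 0.58 to 0.63 with gRNA2 (log2), ARRDC4 from -0.35 to -0.13 and from 0.51 to 0.6, and ARRDC3 from 0.06 to 0.15 and from -0.43 to -0.23. The members were chosen by the TXNIP counts of these libraries, and every setting reuses these libraries. The kept directions are therefore a description and no independent support. MLXIP crossed 0 in its settings (-0.05 to 0.02 with gRNA2). With offsets for transcript length, values moved by more than the spread for TXNIP between the guides (0.78), ARRDC3 with gRNA2 (-0.43) and between the guides (-0.52), and MLX with gRNA1 (0.03) and between the guides (-0.17); the genes called numbered 536 with gRNA1, 433 with gRNA2 and 446 between the guides, against 1391, 1659 and 1222 without the offsets, and the pathway-list calls 6 with gRNA1 and 9 with gRNA2, against 12 and 25. The cause was not tested. Without a filter on low counts the gRNA1 list count was 21. In that edgeR fit the calls of DUSP1 with gRNA2 (adjusted p = 0.0702) and CDH1 with gRNA1 (adjusted p = 0.0695) were lost. Leaving out 1 library gave 654 to 1701 genes called with gRNA1, 671 to 1817 with gRNA2 and 575 to 1215 between the guides, and 5 to 17 and 15 to 28 list genes with gRNA1 and gRNA2, with fewer libraries in each fit. Of 68 calls of single named genes, 32 held in every setting, 36 were lost in at least 1 and none turned round. Most named genes were picked from these same data, by a low adjusted p or by likeness to TXNIP. This tally is therefore a description and no test of the calls.

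Replicate numbers did not pair the libraries: deviations from the group mean correlated at -0.046 to 0.073 for the same number and -0.074 to 0.054 for others. With a replicate block, 1264, 1582 and 1144 genes and 13, 26 and 18 list genes were called with gRNA1, with gRNA2 and between the guides. DESeq2 called 1227, 1582 and 1193 genes. Its adjusted p ended the gRNA1 calls of ARRB1 (0.0691), ITGB4 (0.0503) and ATF3 (0.0716). It also ended the gRNA2 calls of MAX (0.0659), F2R (0.0549), DUSP1 (0.104) and NAPSA (0.0949). RLE scaling in edgeR ended the MAX call too (0.0506). With only the groups compared, edgeR lost the gRNA2 calls of MAX (0.0541), TXN (0.0705), ARRB1 (0.0578), PRDX6 (0.0528) and DUSP1 (0.0571). The gRNA1 call of CDH1 was lost there too (0.0615). Depth limits the precision for the targeted transcript, at 36 to 62 reads per library, and for ARRDC4, at 181 to 485 reads.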

Other observations

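Outside the pathway lists, the 20 genes whose RefSeq promoter window holds the paired E-box-like motif of TXNIP were read for their own values; this set was chosen after the TXNIP promoter and its values had been seen, and carries no test as a set. Besides TXNIP, 15 of them had enough reads. GFPT1, the first enzyme of hexosamine synthesis from glucose, rose with gRNA2 (log2 fold change 0.18, adjusted p = 0.0138 by edgeR's quasi-likelihood test) and had 0.1 with gRNA1 (adjusted p = 0.158). TIGD1 rose with both guides (0.23 with gRNA1, adjusted p = 0.0181, and 0.19 with gRNA2, adjusted p = 0.0359). P4HA1, a collagen prolyl hydroxylase (-0.26, adjusted p = 0.00479), and RAN, a nuclear transport GTPase (-0.23, adjusted p = 0.000962), fell with gRNA2. Of all genes, 7.08% passed with gRNA1 and 8.44% with gRNA2. The calls of this paragraph come from the main fit and were not followed through the alternative settings.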
